A study of Mus musculus with 6 samples.

Results

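The genes described here encode the proteasome: 34 of the 18019 rows in the deposited table, found by matching NCBI gene IDs to the Psma, Psmb, Psmc and Psmd symbols, with 14 in the constitutive core (7 alpha and 7 beta) and 20 in the cap (6 ATPase and 14 non-ATPase). The proteasome is the barrel-shaped protease that degrades most ubiquitin-tagged proteins of a cell. Its 20S core is built of stacked rings, with alpha subunits (Psma genes) forming the gates at both ends and beta subunits (Psmb genes) forming the proteolytic chamber between them. The 19S cap sits on the core, and its ATPases (Psmc genes) unfold substrates while its other subunits (Psmd genes) bind ubiquitin chains, remove them and hold the cap together. In heart muscle the proteasome clears misfolded and worn sarcomere proteins, and when its activity is short the transcription factor encoded by Nfe2l1 is known to raise the expression of its subunit genes.

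RNA came from hearts of wild-type (WT) mice, 8 weeks after transverse aortic constriction (TAC), an operation that narrows the aorta so that the left ventricle works against a high pressure. Both groups had undergone TAC, and no unoperated heart was analysed here. In the VNS-TAC group (3 libraries) an adeno-associated virus had carried the light-gated channel hChR2[H134R] fused to GFP, under the ChAT promoter, into the DVMN, the brainstem nucleus of the vagal motor neurones, which were then activated by light. The Ctrl-TAC group (3 libraries) had received rAAV-ChAT-GFP, which lacks the channel. The labels used here name neither the age nor the sex of the mice. A treatment tag reads VNS for both groups, so groups were taken from the sample titles. Values are FPKM, that is fragments scaled by gene length and library size, and library values are listed below in the order 1, 2, 3. Low values fell on steps that put the depth at roughly 13980000 to 16140000 fragments per library.

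Libraries of the VNS-TAC group did not resemble each other closely. Correlations across genes were 0.941 to 0.979 among them, against 0.988 to 0.992 among the Ctrl-TAC libraries. Between VNS-TAC and Ctrl-TAC libraries they were 0.947 to 0.987, so VNS-TAC libraries were not closer to each other than to Ctrl-TAC. All 8 cardiomyocyte markers had means above 1 FPKM, with a summed level of 36821 to 53720 FPKM in VNS-TAC and 40643 to 41211 FPKM in Ctrl-TAC. Of the 8, 5 were lower on average and 3 higher, although the median sum was higher in VNS-TAC (45552 against 41062 FPKM). Neutrophil markers summed to 47.3 to 103.0 FPKM against 2.49 to 6.36, with 5 of 8 tested and all 5 higher on average. All 8 fibroblast markers were lower on average, with sums of 321.3 to 449.01 FPKM against 481.2 to 551.5, and the 5 tested of 8 dendritic and class II markers were lower too, with sums of 36.1 to 155.3 against 222.8 to 271.0. All 8 mural markers (smooth muscle and pericytes) were lower on average as well, with sums of 184.3 to 223.1 FPKM against 230.4 to 363.4. Endothelial sums (318.3 to 405.3 against 372.8 to 413.2 FPKM) and macrophage sums (163.8 to 313.2 against 223.3 to 236.3 FPKM) overlapped between the groups. In each of these lists 6 of 8 markers were lower on average and 2 higher. No marker of these lists was at 0 in all 6 libraries. Each library is a whole-tissue sample, in which fewer cells of a type and less RNA per cell cannot be told apart. The part of these shifts in the values below was not tested.

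All 34 proteasome genes were expressed in all 6 libraries, and all had a mean above the 1 FPKM needed to enter the test. In Ctrl-TAC the beta genes were the highest class, with a median of 121.4 to 136.2 FPKM per library, followed by the alpha genes at 81.3 to 90.8, the ATPase genes at 71.6 to 79.1 and the non-ATPase genes at 52.5 to 54.6. Psmb7, which encodes the trypsin-like catalytic subunit, was the highest member at 201.6 ± 9.67 FPKM (SD, n = 3). The lowest 3 were Psmd5 at 9.24 ± 0.091, Psmd9 at 8.67 ± 0.69 and Psmd10 at 7.64 ± 0.55 FPKM, named after their values were seen. These encode chaperones that help assemble the base of the cap and leave before the particle is complete, and the next member up, Psmd14, stood at 27.9 ± 1.44 FPKM. By their symbols Psmd5, Psmd9 and Psmd10 are counted here with the cap and non-ATPase genes, and they pull down the levels of these classes. The spread between libraries was small in Ctrl-TAC, with a median SD over the 34 members of 0.08 on the log2(FPKM + 1) scale, and larger in VNS-TAC at 0.16. Over all 11422 genes tested the same medians were 0.11 and 0.25.

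**Figure D1:**
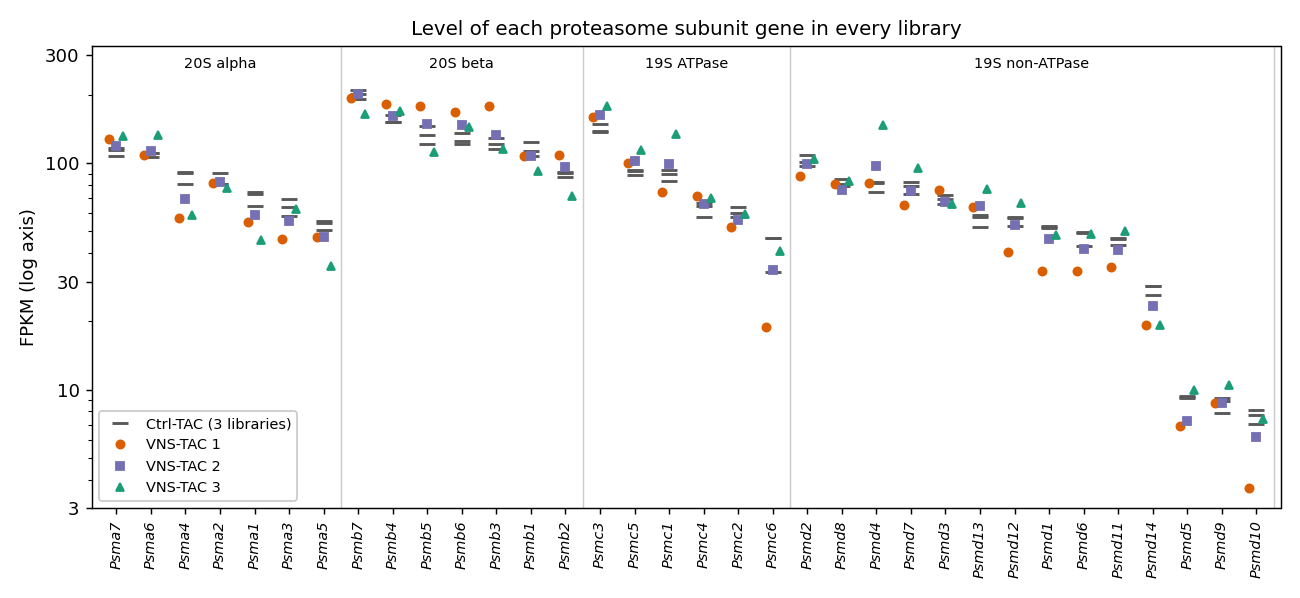
FPKM (log axis) of the 34 proteasome subunit genes in every library, grouped by subunit class and ordered within a class by the Ctrl-TAC mean. Dashes are the 3 Ctrl-TAC libraries and coloured symbols the 3 VNS-TAC libraries. Psmb7 is the highest gene and the chaperone genes Psmd5, Psmd9 and Psmd10 form a group with Ctrl-TAC means of 7.64 to 9.24 FPKM, below Psmd14.

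Setting VNS-TAC beside Ctrl-TAC addresses whether vagal activation alters expression in the overloaded heart. For the proteasome genes the differences were small and went both ways: 15 members were higher and 19 (55.9%) lower on average, where 61.8% of all genes were lower, with log2 fold changes between -0.50 (Psma4) and 0.40 (Psmd4). No member passed the adjusted threshold of 0.05 in limma (adjusted p from 0.221 to 0.992 over the 34 members). The background in that fit was 0 of 11422 genes, or 0%. At an unadjusted p under 0.05 there were 3 members, Psma4, Psmd14 and Psma1, all lower in VNS-TAC, where 15.0% of all genes reached that level with 11.3% lower and 3.79% higher. The 3 values of one group lay entirely above those of the other for 10 members, 29.4% of the set, against a background of 25.4%. Of these, 5 were higher (background 8.01%) and 5 lower (background 17.4%). The median log2 fold change was -0.02 for the core and -0.05 for the cap, and -0.08 for all genes tested. Directions depended on the scaling: with the GC trend removed 21 of the 34 members were higher, with quantile normalization or equal FPKM sums 13, and with size factors 18. The higher share of all genes with an unadjusted p below 0.05 was 25.2% as deposited and 10.8% to 54.4% under these scalings.

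**Figure D2:**
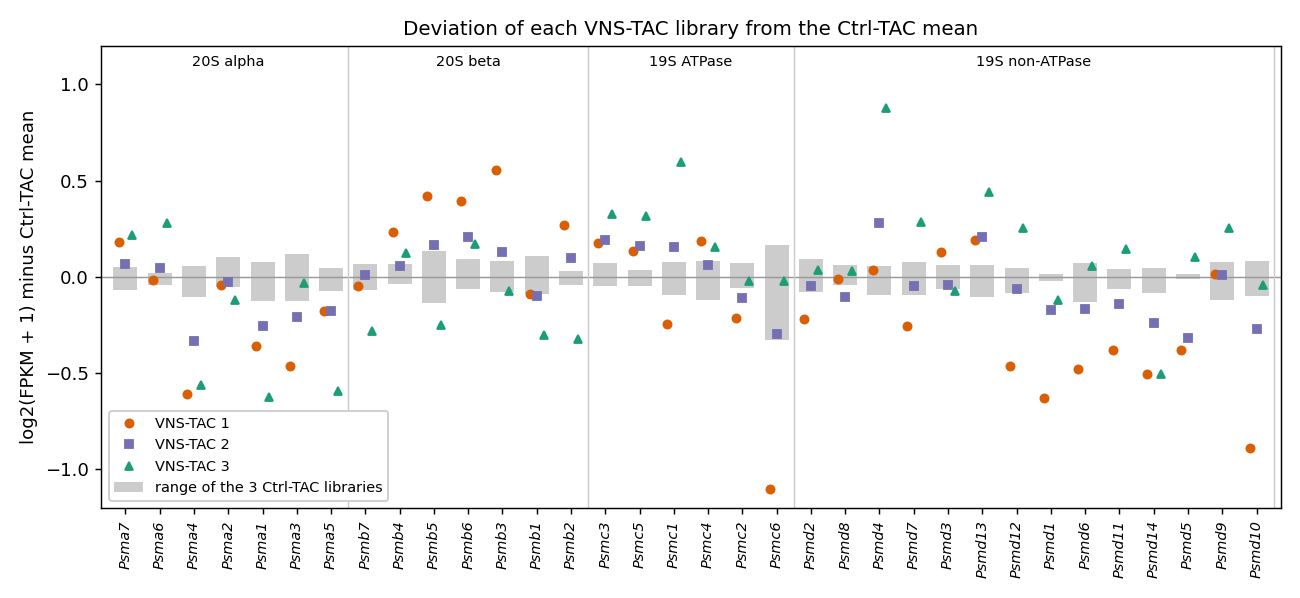
Difference on the log2(FPKM + 1) scale between each VNS-TAC library and the Ctrl-TAC mean, for each of the 34 genes. Grey bars span the 3 Ctrl-TAC libraries. Psma4, Psma1, Psma5, Psmd1 and Psmd14 lie below the bar in all 3 VNS-TAC libraries, and Psma7, Psmb6, Psmc3, Psmc5 and Psmd13 above it.

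Alpha subunits form the outer rings and the substrate gate of the core. Of the 7 genes, 5 (71.4%) were lower on average in VNS-TAC and 2 higher (median log2 fold change -0.24). Over all genes tested, 61.8% were lower. Psma4 (chromosome 9, 54950781 to 54958034, GRCm38) had the lowest fold change of the set and measured 57.03, 69.30 and 58.95 FPKM under VNS-TAC, compared with 90.83, 91.10 and 81.30 under Ctrl-TAC. Every VNS-TAC value lay below every Ctrl-TAC value. Its log2 fold change was -0.50 ± 0.13 (SE; limma adjusted p = 0.221). Another limma fit (array weights) weighted each library by how closely it followed the mean of its own group, and used no separate measure of library quality. In that fit Psma4 passed (limma adjusted p = 0.0311), as did 8.90% of all genes. It gave VNS-TAC 2 a weight of 2.82 and VNS-TAC 1 and 3 weights of 0.246 and 0.247, so its VNS-TAC side rested mainly on 1 library.

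Psma1 measured 55.08, 59.24 and 45.60 FPKM under VNS-TAC, compared with 74.85, 73.15 and 64.97 under Ctrl-TAC. Again the groups did not overlap, and its log2 fold change was -0.41 ± 0.14 (SE; limma adjusted p = 0.264). Psma5 also lay lower without overlap, at 47.19, 47.22 and 35.13 FPKM against 54.67, 50.83 and 55.34. VNS-TAC 3 was its lowest library, and without that library the log2 fold change went from -0.32 to -0.18. Psma7 was the alpha gene with the largest difference upward, at 128.56, 118.77 and 131.68 FPKM against 114.59, 108.02 and 117.32, and its groups did not overlap either (log2 fold change 0.16 ± 0.11, SE; limma adjusted p = 0.514). The other alpha genes overlapped between the groups: Psma2 and Psma3 were lower on average and Psma6 higher, with log2 fold changes of -0.06, -0.24 and 0.10. With the GC trend of each library removed, the median of the alpha class was 0.04 and 3 of 7 genes were lower.

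Beta subunits form the inner rings, and Psmb5, Psmb6 and Psmb7 carry the chymotrypsin-like, caspase-like and trypsin-like active sites. Of the 7 beta genes, 5 were higher on average in VNS-TAC and 2 (28.6%) lower, against 61.8% of all genes lower (median log2 fold change 0.11). Psmb6 (chromosome 11, 70525324 to 70527858, GRCm38) measured 168.03, 147.65 and 144.11 FPKM under VNS-TAC, compared with 136.24, 122.17 and 125.43 under Ctrl-TAC. It was the only beta gene whose groups did not overlap, with a log2 fold change of 0.26 ± 0.12 (SE; limma adjusted p = 0.356). Psmb5 measured 179.03, 149.61 and 111.82 FPKM under VNS-TAC, compared with 146.72, 133.18 and 121.39 under Ctrl-TAC, so VNS-TAC 1 was the highest and VNS-TAC 3 the lowest of the 6 libraries. Its log2 fold change was 0.11 ± 0.19, and -0.04 without VNS-TAC 1. Psmb7 was at 195.18, 202.87 and 165.61 FPKM against 211.22, 201.71 and 191.88, an overlap with VNS-TAC 3 lowest.

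Psmb2 and Psmb3 had the same order of VNS-TAC libraries as Psmb5. Psmb2 measured 108.30, 95.78 and 71.35 FPKM under VNS-TAC, compared with 87.05, 91.42 and 90.13 under Ctrl-TAC, which gave means that hardly differed (log2 fold change 0.02 ± 0.17). VNS-TAC 1 was the highest of the 6 libraries for 5 of 7 beta genes and VNS-TAC 3 the lowest for 4 of 7. Over all genes tested the same shares were 19% and 26.5%. Psmb1, with the lowest beta fold change, was at 107.72, 107.28 and 92.87 FPKM against 123.83, 107.70 and 113.46. In the same library order, cardiomyocyte markers summed to 53720, 45552 and 36821 FPKM and erythroid markers to 1503, 310.3 and 25.1 FPKM in VNS-TAC. Of the erythroid markers tested, 4 were lower on average in VNS-TAC and 1 higher. The part of any of these marker lists in the beta values was not tested. Without VNS-TAC 1 the median of the beta class went from 0.11 to -0.04, and 3 of 7 genes were higher.

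Promoter sequences from RefSeq (GRCm38.p6) were matched for 28 of the 34 genes, as windows of 300 bases from 250 before the start site to 50 after it. The antioxidant response element, which Nfe2l1 binds, was searched in them as TGACNNNGC on both strands. Sequences are shown for a beta and an alpha gene whose groups did not overlap, Psmb6 and Psma4. The stretches from the start of these windows to the annotated start of the gene follow for Psmb6 (chr11:70525107-70525323, plus strand) and Psma4 (chr9:54950609-54950780, plus strand). The E-box CACGTG, present in the Psma4 stretch only, is in capitals, and neither stretch holds TGACNNNGC.
Psmb6: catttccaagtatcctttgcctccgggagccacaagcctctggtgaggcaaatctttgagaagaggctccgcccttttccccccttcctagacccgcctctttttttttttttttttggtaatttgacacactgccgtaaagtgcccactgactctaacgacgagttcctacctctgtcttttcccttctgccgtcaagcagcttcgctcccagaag
Psma4: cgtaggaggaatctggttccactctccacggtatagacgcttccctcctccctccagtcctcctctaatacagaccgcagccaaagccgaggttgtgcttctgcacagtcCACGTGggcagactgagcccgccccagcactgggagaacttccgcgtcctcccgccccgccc

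The element TGACNNNGC was found in the windows of 5 members, Psmb5, Psmb6, Psmc6, Psmd9 and Psmd12, which is 5 of 30 windows (16.7%) against 12.4% of the 32851 windows of the whole table. The stretches around it follow, with the match in capitals. In Psmb6 it lies 9 bases before the start site of the window but inside the gene as RefSeq annotates it; Psmc6 and Psmd12 hold it as the reverse complement.
Psmb6 (chr11:70525338-70525356, plus strand): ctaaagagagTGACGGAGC
Psmb5 (chr14:54618024-54618052, minus strand): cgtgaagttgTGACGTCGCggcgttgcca
Psmd9 (chr5:123228149-123228177, plus strand): atctagccggTGACCCCGCccacttccaa
Psmc6 (chr14:45329587-45329615, plus strand): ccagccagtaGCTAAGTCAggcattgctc
Psmd12 (chr11:107479278-107479299, plus strand): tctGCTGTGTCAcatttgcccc

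Genes with this match did not share a direction: their log2 fold changes were 0.11 for Psmb5, 0.26 for Psmb6, 0.09 for Psmd9, -0.09 for Psmd12 and -0.47 for Psmc6. The CCAAT box, bound by NF-Y, was in 36.7% of the members' windows and 37.4% of all windows, counting both strands. The E-box CACGTG was in 6.7% and 7.2%. A match describes letters in a window and does not show binding.

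ATPase genes of the cap encode the ring that unfolds substrates and threads them into the core. Of the 6, 4 were higher on average in VNS-TAC and 2 (33.3%) lower, against 61.8% of all genes lower (median log2 fold change 0.15). Psmc3 measured 160.81, 162.78 and 178.67 FPKM under VNS-TAC, compared with 149.66, 137.59 and 139.56 under Ctrl-TAC. Its groups did not overlap, and its log2 fold change was 0.23 ± 0.11 (SE; limma adjusted p = 0.367). Psmc5 lay higher without overlap as well, at 100.26, 102.18 and 114.11 FPKM against 93.52, 88.41 and 92.14. Psmc6 was the lowest ATPase gene and the one with the widest spread of the 34, at 18.88, 33.71 and 40.93 FPKM against 46.85, 46.60 and 32.95. VNS-TAC 1 alone lay below the Ctrl-TAC range there, and without it the log2 fold change went from -0.47 to -0.16. The remaining ATPase genes, Psmc1, Psmc2 and Psmc4, overlapped, with log2 fold changes of 0.17, -0.12 and 0.13.

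Non-ATPase genes of the cap were lower on average in 10 of 14 cases (71.4%, against 61.8% of all genes). The class median was -0.08 on the log2 scale, the same as for all genes. Psmd14 (chromosome 2, 61711694 to 61800376, GRCm38) encodes the deubiquitinase of the lid, which cuts the ubiquitin chain from a substrate as it enters. It measured 19.36, 23.48 and 19.36 FPKM under VNS-TAC, compared with 28.65, 28.80 and 26.23 under Ctrl-TAC. No VNS-TAC library reached the Ctrl-TAC range, and the log2 fold change was -0.42 ± 0.13 (SE; limma adjusted p = 0.250). With the GC trend removed it was -0.19. Psmd1, which encodes the large scaffold protein of the base, was at 33.37, 46.33 and 48.04 FPKM against 51.53, 52.77 and 52.45. The groups did not overlap, but VNS-TAC 1 lay far below the others, and without it the log2 fold change went from -0.31 to -0.14.

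Psmd13, a lid subunit, lay higher without overlap at 64.34, 65.01 and 76.59 FPKM against 57.75, 52.26 and 58.81 (log2 fold change 0.28 ± 0.12, SE; limma adjusted p = 0.340). Psmd4, whose product is a ubiquitin receptor of the cap, had the largest upward difference of the set but overlapped between groups. It was at 81.99, 97.09 and 147.68 FPKM against 82.19, 74.72 and 82.97, so the difference came mainly from VNS-TAC 3, and without that library the log2 fold change went from 0.40 to 0.16. Psmd10, the gene of the chaperone gankyrin, was lower on average with an overlap, at 3.66, 6.16 and 7.38 FPKM against 8.13, 7.75 and 7.05. VNS-TAC 1 was its lowest library, and without it the log2 fold change went from -0.40 to -0.16. Psmd2, the highest non-ATPase gene, was at 87.87, 98.94 and 104.77 FPKM against 101.57, 96.79 and 109.04. The other 8 non-ATPase genes overlapped between the groups, with log2 fold changes from -0.20 (Psmd5) to 0.09 (Psmd9).

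The balance of core and cap genes differed among the VNS-TAC libraries. VNS-TAC 1 was the lowest of the 6 libraries for 12 of 20 cap genes, against 37.7% of all genes, and for 2 of 14 core genes. VNS-TAC 3 was the highest for 10 of 20 cap genes, against 32.0% of all genes, and the lowest for 7 of 14 core genes. A Ctrl-TAC library was often the lowest too. Ctrl-TAC 2 was so for 6 of 20 cap genes and 5 of 14 core genes, against 11.6% of all genes. Psma7, Psmb6, Psmc3, Psmc5 and Psmd13, which lay higher in VNS-TAC without overlap, were among these. The mean log2 level of the core less that of the cap was 1.34, 1.10 and 0.75 under VNS-TAC, compared with 1.09, 1.09 and 1.05 under Ctrl-TAC. VNS-TAC 2 was thus close to the Ctrl-TAC libraries, with VNS-TAC 1 above and VNS-TAC 3 below them. With the GC trend removed these values were 1.35, 1.10 and 0.75 against 1.08, 1.08 and 1.05.

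Within the core, the mean log2 level of beta genes less that of alpha genes was 1.15, 0.90 and 0.76 under VNS-TAC, compared with 0.72, 0.66 and 0.69 under Ctrl-TAC. Each VNS-TAC value lay above each Ctrl-TAC value. With the GC trend removed the values were 0.97, 0.90 and 0.79 against 0.78, 0.75 and 0.70. Within the cap, the ATPase genes less the non-ATPase genes gave 0.998, 1.009 and 1.003 under VNS-TAC, compared with 0.94, 0.91 and 0.85 under Ctrl-TAC. These splits into classes are given as a description, with no test, because the members had been chosen with results of these data known.

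**Figure D3:**
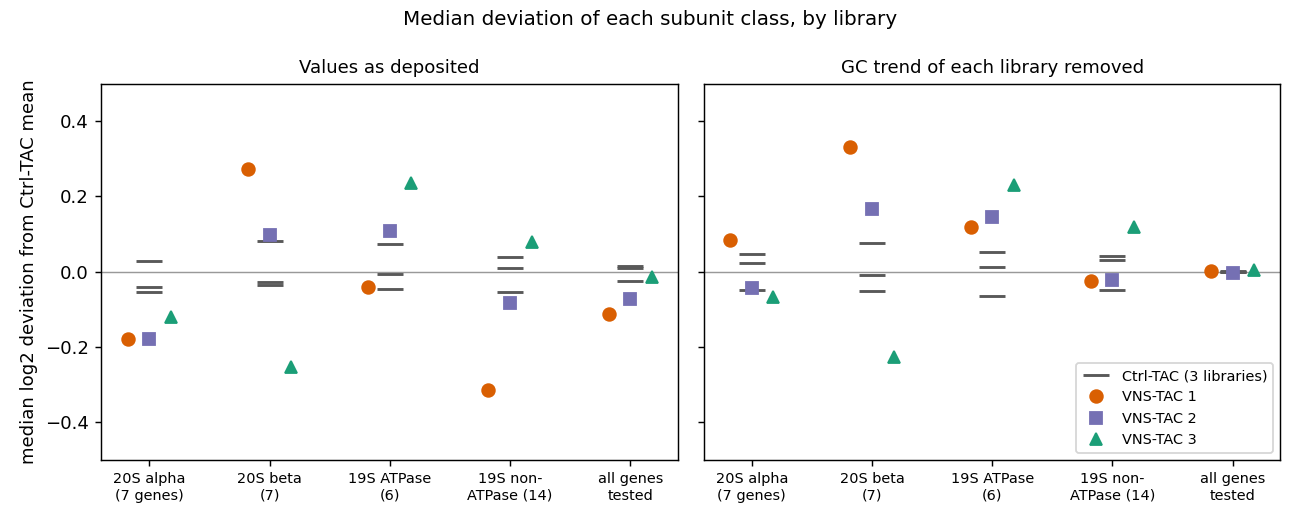
Median deviation from the Ctrl-TAC mean on the log2(FPKM + 1) scale of each subunit class and of all genes tested, by library (dashes, Ctrl-TAC; symbols, VNS-TAC), for values as deposited (left) and with the GC trend of each library removed (right). Beta genes are spread from 0.27 in VNS-TAC 1 to -0.25 in VNS-TAC 3 on the left, and alpha genes lie between -0.18 and -0.12 on the left but between -0.07 and 0.08 on the right.

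The members' deviations moved with the GC content of their transcripts. Across the 34 genes, the Spearman correlation of the deviation from the Ctrl-TAC mean with GC content was 0.74 in VNS-TAC 1, 0.70 in VNS-TAC 2 and 0.41 in VNS-TAC 3, and over all genes with a GC content it was 0.56, 0.25 and 0.04. Ctrl-TAC libraries had such correlations as well. In Ctrl-TAC 1, 2 and 3 they were -0.13, -0.54 and 0.44 across the 34 genes. Over all genes with a GC content they were -0.03, -0.31 and 0.28. Within each set the points share their libraries and the Ctrl-TAC mean. The log2 fold change itself correlated with GC content at 0.75 over the members, against 0.38 over all genes with a GC content. After the GC trend was removed it correlated at 0.29 over the members. Single members differed in how far removal of the trend moved them. Psmc6, with the lowest GC content of the set (37.0%), had a log2 fold change of -0.47, and -0.14 with the trend removed. Psma1 (44.0%) went from -0.41 to -0.21 and Psma4 (45.0%) from -0.50 to -0.32. Psmd4 (52.8%) stayed at 0.40, and Psmb6 (51.6%) went from 0.26 to 0.27. The part of base composition in the differences between groups was not tested further.

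**Figure D4:**
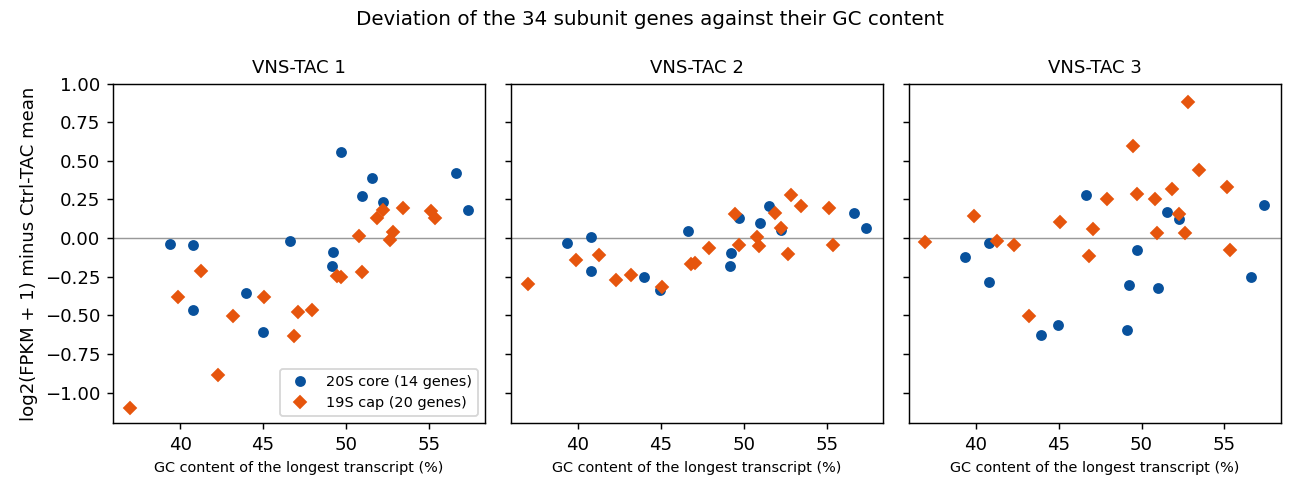
Deviation from the Ctrl-TAC mean on the log2(FPKM + 1) scale against the GC content of the longest annotated transcript, for the 14 core genes (circles) and the 20 cap genes (diamonds) in each VNS-TAC library. In VNS-TAC 1 the deviations tend to rise with GC content, with exceptions: Psmc6 (37.0%) is at -1.10, but Psma2 (39.4%) is at -0.04 and Psmd1 (46.9%) at -0.63. In VNS-TAC 3 the median deviation is 0.12 for cap genes and -0.19 for core genes.

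Immunoproteasome subunits replace the catalytic beta subunits in immune cells and after interferon exposure, and Psmb8, Psmb9 and Psmb10 encode the counterparts of Psmb5, Psmb6 and Psmb7. None of the 3 genes passed the test (limma adjusted p = 0.772 to 0.932), and all overlapped between the groups. Psmb8 measured 14.58, 12.92 and 20.15 FPKM under VNS-TAC, compared with 14.20, 11.89 and 18.93 under Ctrl-TAC. Psmb9 was at 12.54, 7.38 and 11.46 FPKM against 9.37, 7.16 and 13.90. Psmb10 was the highest of the 3, at 50.11, 41.80 and 49.07 FPKM against 48.56, 40.99 and 43.60. Both groups held a library with markedly more Psmb8 than the other two, VNS-TAC 3 and Ctrl-TAC 3.

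As a share of the constitutive partner, Psmb8 stood at 11.6 ± 5.57% of Psmb5 in VNS-TAC and 11.4 ± 3.65% in Ctrl-TAC (SD, n = 3). Psmb9 stood at 6.80 ± 1.58% of Psmb6 against 7.94 ± 2.77%, and Psmb10 at 25.3 ± 4.52% of Psmb7 against 22.01 ± 1.47%. Each difference in means was smaller than the SD of VNS-TAC. In VNS-TAC the highest ratio of all 3 pairs was in VNS-TAC 3, which also had the largest sum of neutrophil markers (103.0 FPKM) and the smallest sum of macrophage markers (163.8 FPKM). The part of these cells in the ratios was not tested. All 8 lymphocyte markers had means under 1 FPKM.

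**Figure D5:**
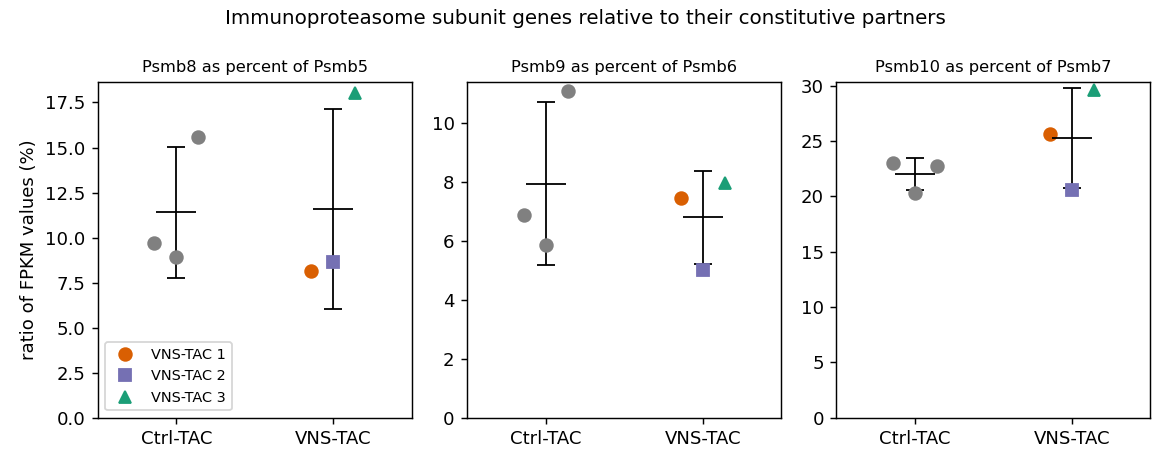
FPKM of each immunoproteasome subunit gene as a percentage of its constitutive partner gene (vertical axes start at 0), with 1 point per library and the mean and SD of each group (n = 3) as black bars. The groups overlap in all 3 panels, and VNS-TAC 3 has the highest VNS-TAC value in each.

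Regulatory caps and inhibitors other than 19S were taken from a list of 5 genes, all tested. None passed the adjusted threshold, and 2 of 5 did not overlap between the groups, against 25.4% of all genes. Psme4, the gene of the activator PA200, measured 17.86, 41.65 and 27.61 FPKM under VNS-TAC, compared with 43.92, 50.34 and 41.91 under Ctrl-TAC. It had the largest difference among all the proteasome-related genes listed, with a log2 fold change of -0.70 ± 0.28 (SE; limma adjusted p = 0.304), and -0.41 without VNS-TAC 1. Psmf1, the gene of the inhibitor PI31, lay higher without overlap at 7.52, 8.24 and 9.41 FPKM against 7.09, 6.59 and 7.44. The genes of the PA28 activators, Psme1, Psme2 and Psme3, overlapped, with log2 fold changes of 0.14, -0.03 and -0.02. The tissue-restricted core genes Psma8 and Psmb11, known from testis and thymus, had means below the filter, with at most 0.58 and 0.20 FPKM in any library.

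Further assembly chaperones were covered by 5 of 6 listed genes, and none passed. Psmg2 lay lower without overlap, at 18.55, 18.32 and 14.39 FPKM against 20.11, 20.97 and 19.70. Psmg4 was higher on average with an overlap, at 18.98, 14.88 and 21.09 FPKM against 13.95, 15.79 and 13.84. Among 6 further cap and cap-bound proteins, none passed the adjusted threshold. Usp14, a deubiquitinase that docks on the cap, measured 16.04, 18.48 and 16.93 FPKM under VNS-TAC, compared with 23.20, 23.96 and 23.06 under Ctrl-TAC. The groups were far apart relative to their spread, and the log2 fold change was -0.43 ± 0.11 (SE; limma adjusted p = 0.232, and 0.0343 with the library weights above). With the GC trend removed it was -0.13. Adrm1, a ubiquitin receptor of the cap, lay higher without overlap at 92.39, 84.01 and 98.31 FPKM against 79.36, 69.08 and 78.89.

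Proteins that extract substrates and carry them to the cap were listed with 9 genes, and none passed. Of these, 7 (77.8%) were lower on average, against 61.8% of all genes. Vcp, the segregase that pulls ubiquitinated proteins out of complexes and membranes, was at 133.66, 157.16 and 155.80 FPKM against 182.53, 177.47 and 183.09, with no overlap (log2 fold change -0.28 ± 0.12, SE; limma adjusted p = 0.325). Of the genes for ubiquitin and its activating enzymes, 5 of 6 were tested and none passed. All 5 were higher on average, where 61.8% of all genes were lower. Rps27a, which encodes ubiquitin fused to a ribosomal protein, overlapped at 266.90, 262.78 and 383.72 FPKM against 282.48, 254.44 and 233.90. Reads of ubiquitin genes may be shared with near-identical copies, so their values are uncertain.

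Regulators of proteasome gene expression were listed with 10 genes, and none passed. Of these, 8 (80%) were lower on average, against 61.8% of all genes. Nfe2l1 itself was high and overlapped, with 180.94, 182.08 and 144.54 FPKM under VNS-TAC compared with 188.41, 178.29 and 197.33 (log2 fold change -0.16 ± 0.14, SE; limma adjusted p = 0.576). VNS-TAC 3 was its lowest library. Its relative Nfe2l2, the factor of the oxidative stress response, was at 25.97, 31.60 and 25.56 FPKM against 35.88, 36.03 and 39.13, with no overlap (log2 fold change -0.41 ± 0.13, SE; limma adjusted p = 0.251). Mafg, a small Maf partner of both, also lay lower without overlap, at 13.79, 16.01 and 13.35 FPKM against 19, 19.32 and 18.46. In total 4 of these 10 genes lay lower without overlap, against the background of 17.4%. Zfand2a, one of them and named after its values were seen, passed with the library weights (limma adjusted p = 0.0378) and had an adjusted p of 0.366 without them.

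Counting may have shared reads for some members. In GENCODE M21, 10 of the 34 genes have another annotated gene with at least 95% identity over at least 300 bases of their longest transcript. Psma4, Psma5, Psmb5, Psmd1 and Psmd13 are among these 10 genes, whose values are uncertain. A further source is overlap of exons: over 10% of the exon bases of Psmb5, Psmb7, Psmd9 and Psmd13 lie in another gene, and the strand setting of the counting is not given in the sources used here. Psma1, Psma7, Psmb6, Psmc5 and Psmd14, which did not overlap between the groups, have neither.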

How the data were processed

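The members and gene lists were chosen with earlier results of these data known. The deposited table gives FPKM, per the file headers, made by the authors. The submitters' processing notes list GRCm38, HISAT, DESeq 1.8.3 and featureCounts 1.5.0-p3 but give no roles. Ctrl-TAC columns were matched by library name. VNS-TAC columns are numbered 1 to 3 but the library names 4 to 6, so they were matched to the group only and keep their column numbers. No label says that libraries came from separate animals. The p-values therefore reflect only how far these libraries differ, and that may be technical.

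Symbols came from RefSeq for 17890 IDs and GENCODE for 15. The 11422 genes averaging 1 FPKM or more were tested as log2(FPKM + 1), a scale that understates changes of low genes. The test was limma 3.58.1 in R 4.3.3 (intensity trend, 2-sided, Benjamini-Hochberg over all genes, threshold 0.05). It was also run on simulated independent values with the same SD in both groups and no GC trend. That run does not cover the wider spread of VNS-TAC or the GC trends of the real libraries. Longest-transcript GC content came from GENCODE M21, and lowess trends (span 0.3) were removed per library. Copies were sought with blastn 2.17.0. Values in every library are given for the highest and lowest member of each class, the largest differences, non-overlapping members (at most 4 a class), the catalytic and immunoproteasome genes, Nfe2l1, and 2 genes of each further list with the smallest p. Of the genes so chosen, 2 are not reported here. Alternatives were other pseudocounts, filters, scalings, limma settings and each library left out. Depths are estimates from the steps of low FPKM values and were used in no test.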

Additional observations from a re-analysis of the deposited data

How the results depend on the processing

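None of the 34 members passed the adjusted threshold in limma in 17 of 18 alternatives, and 1 (Psma4) passed with array weights. Over all genes, 0 passed in the deposited scaling (1719 at an unadjusted p under 0.05), 1 when a mean of 5 FPKM was required, 2 with size factors, 2 with quantile normalization, 2 with the GC trend removed and 1016 with array weights. Leaving out 1 library gave 0 to 3 genes over all (3 without VNS-TAC 3 and 3 without Ctrl-TAC 1) and 0 members, a median of -0.0941 to -0.0009 for the core and -0.141 to -0.0029 for the cap, 7 to 9 lower core genes and 10 to 13 lower cap genes. With the GC trend removed the core median was 0.10 and 4 of its 14 genes were lower, against -0.02 and 7. The cause was not tested. The higher share of genes with unadjusted p below 0.05 was 25.2%, and it was 46.7% with size factors, 54.4% with quantile normalization, 10.8% with every library rescaled to the same sum, 43.2% with the GC trend and 48.2% with the length trend removed.

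Of 34 genes chosen by the rule for values in every library, 28 kept their direction in all 18 alternatives. Psmb2 (0.02) was at -0.0086 with quantile normalization, -0.0608 with the same sum and -0.006 with the length trend removed, and ranged from -0.1133 (without VNS-TAC 1) to 0.1843 with 1 library left out. Psmb5 ranged from -0.0438 (without VNS-TAC 1) to 0.2934, and Psmb7 was at 0.17 with the GC trend removed. Psmb8 was at -0.0649 with array weights and ranged from -0.0967 (without VNS-TAC 3) to 0.2473 with 1 library left out. Psmb9 was at -0.0151 with the same sum and -0.1979 with array weights, and ranged from -0.1473 (without Ctrl-TAC 2) to 0.287. Psmb10 was at -0.0708 with array weights. The alpha and beta classes were taken apart after the values were seen. The alpha median was -0.31 to -0.12 and the beta median -0.04 to 0.19 over the other alternatives, apart from the alpha value of 0.04 with the GC trend removed.

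No paired analysis was possible because the VNS-TAC columns cannot be matched to numbered samples, so a replicate block was not run. Depth is known only approximately, and 3 libraries a group limit the precision.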
